A study of Mus musculus with 6 samples.

Results

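Genes of apolipoproteins, lipoprotein handling and lipid droplets were examined in whole liver of Pfn2-/- mice and of wild-type mice. Pfn2 encodes profilin 2, an actin-binding protein. The set held 32 genes, chosen by name for their roles, with earlier results of these data known. Rows that carried exactly 1 of these symbols were found for 29 of them, out of 22180 genes measured in the series, and all 29 lay above the median of all gene means, so a low-value filter at that median removed none. Sort1 and Lpl had more than 1 row each, and the brighter row was used. Apoc4, Lipc and Cideb had no row with their symbol alone and were not analysed here.

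The series holds 6 Affymetrix arrays of total liver RNA, 3 per genotype, all from strain C57BL/6, and the labels name the 3 of a genotype as independent biological samples. Replicates 1, 2 and 3 of the Pfn2-/- group were 9, 8.5 and 8 months old, and so were replicates 1, 2 and 3 of the wild-type group. No treatment was applied, and neither sex, feeding state nor the kind of Pfn2 allele is given in the sources used here. Pfn2 itself had values of 3.88, 3.81 and 3.93 in Pfn2-/- livers and 4.02, 3.85 and 4.09 in wild-type livers, a difference of -0.11 (SE 0.12), so its row did not separate the genotypes and cannot check the labels. The tissue label was matched by hepatocyte markers: Alb lay at 12.93 to 12.97 in Pfn2-/- livers and at 12.98 to 13.00 in wild-type livers, and Ttr at 10.73 to 10.86 in Pfn2-/- livers and at 10.75 to 10.92 in wild-type livers.

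The liver packs triglyceride and cholesterol ester around apolipoprotein B, secretes the particle as very low density lipoprotein, and also makes the apolipoproteins of high density lipoprotein. In plasma, lipases strip fatty acids from these particles under the control of apolipoproteins and angiopoietin-like proteins, and receptors return the remnants to the liver. Inside hepatocytes, fat that is not secreted is stored in lipid droplets coated with perilipins and CIDE proteins, from which lipases release it for oxidation or for new particles.

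Upstream sequence is shown for 4 members. Apoa5 and Apoa4 lie next to each other on chromosome 9 and had differences of opposite sign, and so did Plin5 and Cidec, both droplet genes with an unadjusted p under 0.05. The sequences are RefSeq's for build GRCm38.p6, printed 5′ to 3′ on the gene's strand up to the base before the gene, and cover chr9:46268358-46268607 (plus strand) for Apoa5, chr9:46240594-46240843 (plus strand) for Apoa4, chr17:56117607-56117798 (minus strand) for Plin5 and chr6:113435761-113436010 (minus strand) for Cidec. The 192 bases shown for Plin5 stop where the gene's longest annotated span begins. Capitals mark matches to CACGTG (the E-box, a palindrome recognised by basic helix-loop-helix factors such as USF and clock proteins), TATAAA (the TATA box) or AGGTCA (the half-site of many nuclear receptors), searched on both strands.
Apoa5: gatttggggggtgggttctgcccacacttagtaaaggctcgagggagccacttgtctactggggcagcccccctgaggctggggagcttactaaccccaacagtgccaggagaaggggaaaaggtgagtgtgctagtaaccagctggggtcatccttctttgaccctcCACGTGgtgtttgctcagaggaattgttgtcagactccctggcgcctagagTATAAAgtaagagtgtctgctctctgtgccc
Apoa4: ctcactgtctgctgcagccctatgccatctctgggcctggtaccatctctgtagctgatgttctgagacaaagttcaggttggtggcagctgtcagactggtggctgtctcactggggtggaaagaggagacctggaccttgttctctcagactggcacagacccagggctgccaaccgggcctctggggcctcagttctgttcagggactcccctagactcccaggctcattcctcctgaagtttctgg
Plin5: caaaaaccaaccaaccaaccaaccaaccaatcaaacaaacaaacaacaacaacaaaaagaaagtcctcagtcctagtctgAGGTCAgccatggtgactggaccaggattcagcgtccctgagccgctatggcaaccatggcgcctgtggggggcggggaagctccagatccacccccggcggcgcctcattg
Cidec: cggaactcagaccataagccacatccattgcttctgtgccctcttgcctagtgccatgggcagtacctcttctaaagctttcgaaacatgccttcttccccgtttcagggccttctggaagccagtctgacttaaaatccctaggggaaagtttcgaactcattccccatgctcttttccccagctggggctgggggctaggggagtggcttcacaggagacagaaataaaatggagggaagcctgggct

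In Apoa5 the E-box began 82 bases and the TATA box 31 bases before the transcript start. The Plin5 half-site began 170 bases before a transcript start of that gene. The last 58 of those bases lie inside the longest annotated span of Plin5 and are not printed above. The windows of Apoa4 and Cidec held none of these letters. Among all 32851 windows of 250 bases before a start in the RefSeq table, 6.02% held the E-box, 12.4% the TATA box and 14.0% the half-site. The table matched 21 of the 29 measured members. The E-box was present for 1 of them (Apoa5), the TATA box for 5 (Apoa2, Apoa5, Apob, Apoe and Fabp1) and the half-site for 7 (Apoa2, Apoc2, Apoh, Cd36, Fabp1, Plin2 and Plin5). A member was counted if any of its windows matched, and a gene can have several. These counts of genes are therefore not comparable with the percentages of windows. A match describes these letters only and does not show that a factor binds there.

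The question put to the members was whether their RNA level differs between livers labelled Pfn2-/- and livers labelled wild type. No member passed the test over all genes: 0 of 29 had a Benjamini-Hochberg adjusted p under 0.05 in limma, as did 0% of all genes, and the smallest adjusted p among the members was 0.825. Without adjustment, 6 of 29 members (20.7%) had a p under 0.05, of which 2 were higher in Pfn2-/- livers (Sort1 and Cidec, beside 2.67% of all genes) and 4 lower (Apoa5, Tm6sf2, Lipg and Plin5, beside 2.62%), and in either direction 5.29% of all 22180 genes had one. The groups did not overlap in 4 members (13.8%), beside 9.85% of all genes. They were Apob and Lrp1, higher in Pfn2-/- livers beside 5.09% of all genes, and Apoa5 and Tm6sf2, lower beside 4.76%. The members were chosen with earlier results of these data known, so these shares only describe. The members did not shift together, since 13 differences were above 0 and 16 below, with a median of -0.03 against 0 over all genes. Their median absolute difference was 0.16 against 0.11 over all genes, and their median SD within genotypes 0.255 against 0.172, so the typical member also varied more between animals of 1 genotype. Roles differed in this. The median SD was 0.100 over the 12 measured apolipoproteins and 0.099 over receptors and carriers, and 0.266 to 0.531 in the other roles. The apolipoproteins also had a median absolute difference of 0.09. Values are log2 units, and each difference is the mean of 3 Pfn2-/- arrays minus that of 3 wild-type arrays, and its error (SE, the standard error) and 95% confidence interval come from limma. The eBayes step of limma draws each SE toward the spread of all genes, so it can exceed a gene's own spread where that gene varies little. Levels are not compared between genes, since each row has its own probes.

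**Figure D1:**
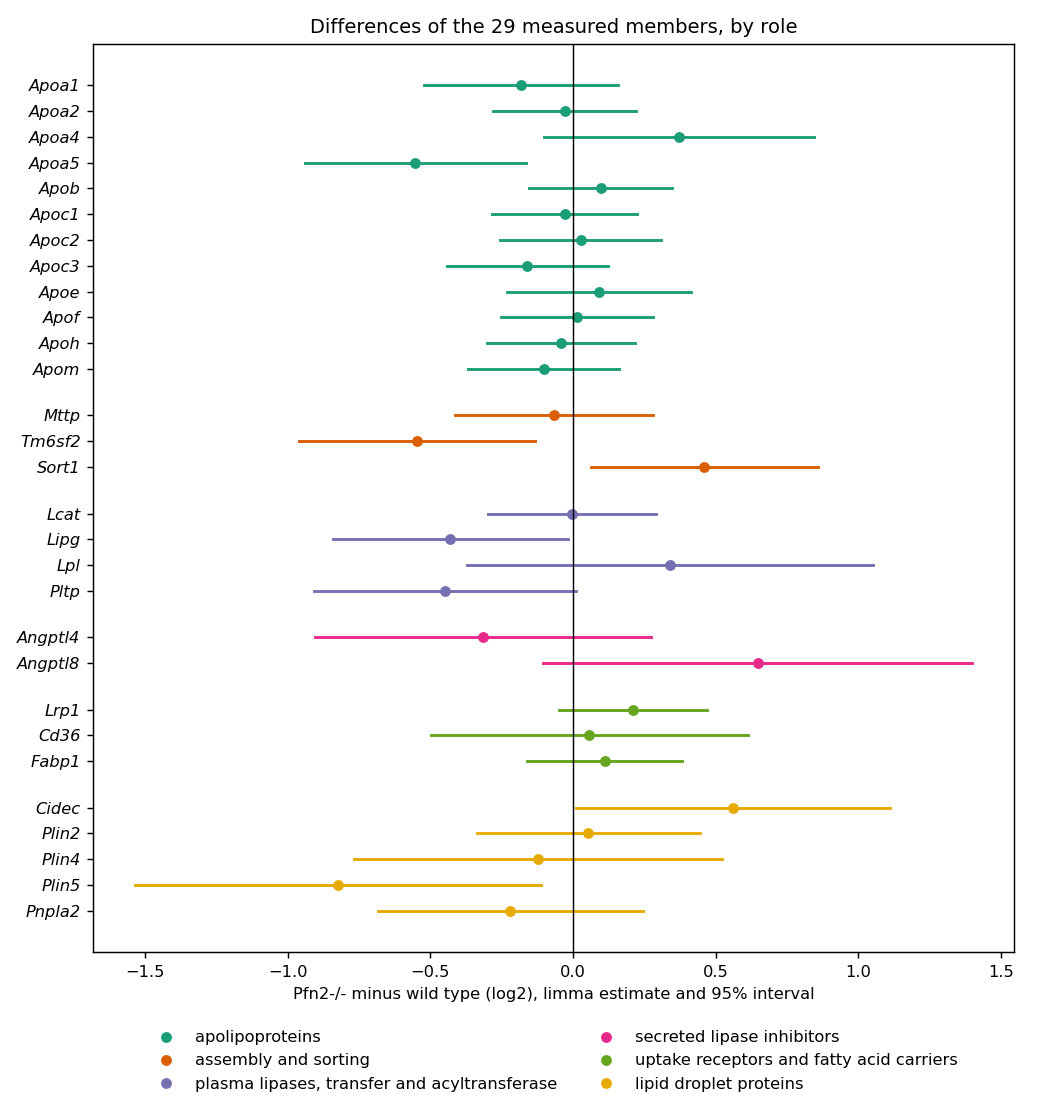
Estimated difference of each measured member, Pfn2-/- minus wild type on the log2 scale (x axis), as points with 95% confidence intervals from limma, grouped by role (colours). The intervals of 6 of the 29 members exclude 0 before adjustment, those of Apoa5, Tm6sf2, Lipg and Plin5 below it and those of Sort1 and Cidec above it.

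Among the apolipoproteins, Apoa5 had the smallest p of all members, and most of the others had differences close to 0 with narrow intervals. Apoa5 encodes a low-abundance plasma apolipoprotein that promotes the hydrolysis of triglyceride by lipoprotein lipase. Its values were 9.28, 8.85 and 9.41 in Pfn2-/- livers and 9.94, 9.74 and 9.52 in wild-type livers. All 3 Pfn2-/- values lay below all 3 wild-type values, with the lowest in Pfn2-/- replicate 2. The means were 9.18 ± 0.29 (SD, n = 3) in Pfn2-/- livers and 9.73 ± 0.21 (SD, n = 3) in wild-type livers. The difference was -0.55 (SE 0.17, 95% confidence interval -0.94 to -0.17), a 1.47-fold lower level in Pfn2-/- livers, with an unadjusted p under 0.05 and an adjusted p of 0.825.

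Apoa5 lies at the end of a cluster with Apoa1, Apoc3 and Apoa4. The estimates of Apoa5, Apoa1 and Apoc3 were below 0 and that of Apoa4 above 0, but the intervals of Apoa1, Apoc3 and Apoa4 included 0. Apoa4, which encodes an apolipoprotein of chylomicrons and high density lipoprotein, had values of 9.81, 9.14 and 9.86 in Pfn2-/- livers and 9.08, 9.07 and 9.55 in wild-type livers. Pfn2-/- replicates 1 and 3 were the highest of the 6 arrays, and wild-type replicate 3 lay above Pfn2-/- replicate 2, so the groups overlapped. The difference was 0.37 (SE 0.21, interval -0.10 to 0.84, adjusted p = 0.952). It was 0.60 without Pfn2-/- replicate 2 (adjusted p = 0.618) and 0.24 without Pfn2-/- replicate 3 (adjusted p = 0.948). Apoa1, the main protein of high density lipoprotein, differed by -0.18 (SE 0.15, interval -0.52 to 0.16), with 10.05, 10.34 and 10.05 in Pfn2-/- livers and 10.53, 10.38 and 10.08 in wild-type livers. Apoc3, which encodes an inhibitor of triglyceride clearance, lay at 8.87 to 9.06 in Pfn2-/- livers and at 9.06 to 9.29 in wild-type livers (difference -0.16, SE 0.13).

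On the other side of Apoa5 lies Zpr1, which encodes a zinc finger protein and was named after its values were seen. Zpr1 had 7.11, 7.28 and 7.68 in Pfn2-/- livers and 8.13, 8.29 and 7.46 in wild-type livers. Pfn2-/- replicate 3 lay above wild-type replicate 3, and the difference was -0.60 (SE 0.22). Zpr1 was the sole one with an unadjusted p under 0.05 among 14 measured non-member genes next to the 8 members shown by array below, beside 5.29% of all genes. The differences of these 14 were -0.60 to 0.47.

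Apob encodes the structural protein of very low density lipoprotein. Its values were 12.69, 12.62 and 12.67 in Pfn2-/- livers and 12.57, 12.60 and 12.52 in wild-type livers. The groups did not overlap, but the closest values of the groups were 12.62 and 12.60. The difference was 0.10 (SE 0.11, interval -0.15 to 0.35, adjusted p = 0.968), less than its SE. That SE reflects the spread of all genes, since the SDs of Apob were 0.036 in Pfn2-/- livers and 0.040 in wild-type livers.

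The remaining apolipoproteins had differences between -0.10 and 0.09. Apoa2, the second protein of high density lipoprotein, lay at 11.30 to 11.41 in Pfn2-/- livers and at 11.37 to 11.40 in wild-type livers (difference -0.03, interval -0.28 to 0.22). In the cluster on chromosome 7, Apoe, a ligand of remnant receptors, differed by 0.09 (SE 0.14), Apoc1 by -0.03 (SE 0.11) and Apoc2, the activator of lipoprotein lipase, by 0.03 (SE 0.13). Apof, Apoh and Apom differed by 0.01, -0.04 and -0.10, each by less than its SE. For 9 of the 12 measured apolipoproteins the 95% interval lay inside -0.5 to 0.5, which corresponds to a change of 1.41-fold in either direction, and the exceptions were Apoa1, Apoa4 and Apoa5.

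Of the genes that load or sort nascent lipoproteins, Tm6sf2 and Sort1 each had an unadjusted p under 0.05, with opposite signs, and Mttp did not. Tm6sf2 encodes a membrane protein that supports the lipidation of very low density lipoprotein. Its values were 7.65, 7.34 and 7.73 in Pfn2-/- livers and 8.08, 7.80 and 8.48 in wild-type livers. The groups did not overlap, although Pfn2-/- replicate 3 and wild-type replicate 2 were close. The means were 7.57 ± 0.21 (SD, n = 3) in Pfn2-/- livers and 8.12 ± 0.34 (SD, n = 3) in wild-type livers. The difference was -0.55 (SE 0.18, interval -0.96 to -0.13, adjusted p = 0.895), a 1.46-fold lower level in Pfn2-/- livers.

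Sort1 encodes sortilin, a sorting receptor that binds apolipoprotein B in the secretory pathway. Its values were 7.31, 7.43 and 6.81 in Pfn2-/- livers and 6.56, 6.69 and 6.92 in wild-type livers. Pfn2-/- replicates 1 and 2 lay above all wild-type arrays, while Pfn2-/- replicate 3 lay among them. The difference was 0.46 (SE 0.18, interval 0.06 to 0.86, adjusted p = 0.915). A dimmer row of Sort1 had 4.04, 4.24 and 4.25 in Pfn2-/- livers and 4.32, 4.17 and 4.40 in wild-type livers, a difference of -0.12, and with the rows averaged the difference was 0.17 (adjusted p = 0.957). Mttp, which encodes the triglyceride transfer protein that lipidates apolipoprotein B, had 9.46, 9.06 and 9.45 in Pfn2-/- livers and 9.36, 9.22 and 9.59 in wild-type livers (difference -0.07, SE 0.16, interval -0.41 to 0.28).

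**Figure D2:**
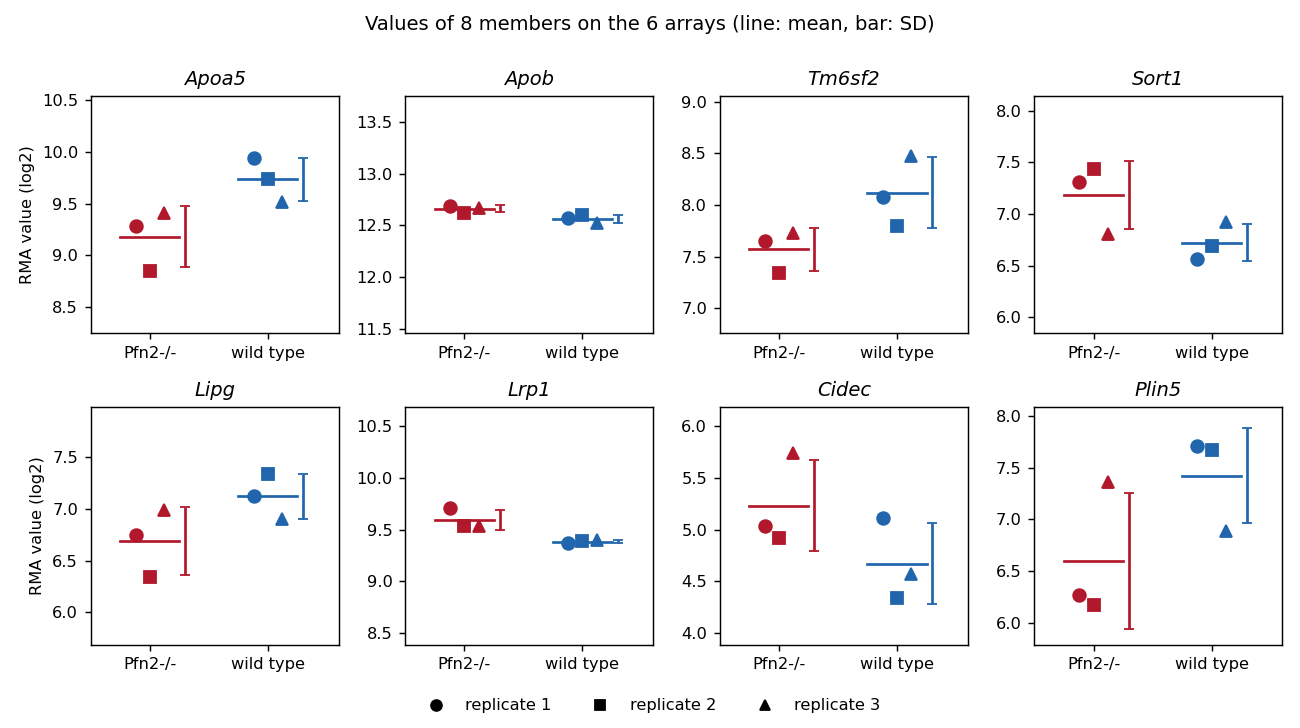
RMA expression values (log2, y axis) of 8 members, each array a point (circle, square and triangle for replicates 1, 2 and 3), with Pfn2-/- left of wild type, the group mean as a line and the SD as a bar. Every panel spans the same range of log2 units. Apoa5, Apob, Tm6sf2 and Lrp1 have groups that do not overlap, whereas 1 or more arrays of Sort1, Lipg, Cidec and Plin5 fall in the range of the other genotype.

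Of the genes of plasma lipases, transfer and acyltransferase, Lipg and Pltp had lower means in Pfn2-/- livers. The groups overlapped in both, as they did in Lcat and Lpl. Lipg encodes endothelial lipase, which hydrolyses phospholipid of high density lipoprotein. Its values were 6.75, 6.34 and 6.99 in Pfn2-/- livers and 7.13, 7.34 and 6.90 in wild-type livers. Pfn2-/- replicate 3 lay above wild-type replicate 3, so the groups overlapped. The difference was -0.43 (SE 0.18, interval -0.84 to -0.02, adjusted p = 0.920), and it was -0.25 without Pfn2-/- replicate 2 and -0.58 without Pfn2-/- replicate 3. Pltp encodes the phospholipid transfer protein, which remodels high density lipoprotein. It had 8.83, 8.58 and 8.98 in Pfn2-/- livers and 9.40, 8.77 and 9.57 in wild-type livers. Wild-type replicate 2 lay inside the Pfn2-/- range, and the difference was -0.45 (SE 0.21, interval -0.91 to 0.01, adjusted p = 0.920). It was -0.69 without wild-type replicate 2 (adjusted p = 0.998) and -0.29 without wild-type replicate 3 (adjusted p = 0.845).

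Lcat encodes the enzyme that esterifies cholesterol on high density lipoprotein. It lay at 10.96 to 11.13 in Pfn2-/- livers and at 10.88 to 11.22 in wild-type livers, with an interval of -0.30 to 0.29 for the difference. Lpl encodes lipoprotein lipase, which adult liver expresses at a low level compared with fat and muscle. Its values were 5.78, 6.05 and 5.34 in Pfn2-/- livers and 5.43, 6.08 and 4.64 in wild-type livers. The difference of 0.34 (SE 0.32) rested on wild-type replicate 3, the lowest array, and was -0.03 without it, whereas it was 0.69 without wild-type replicate 2, the highest array. The dimmer row of Lpl had 3.16, 3.13 and 3.00 in Pfn2-/- livers and 2.82, 3.21 and 2.82 in wild-type livers, a difference of 0.15. With the rows averaged the Lpl difference was 0.24 (adjusted p = 0.957).

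Angptl4 and Angptl8 encode secreted proteins that restrain lipoprotein lipase, Angptl4 with fasting and Angptl8 after feeding. They had differences of opposite sign, and neither had an unadjusted p under 0.05 with all 6 arrays weighted equally. Angptl8 had 9.97, 9.31 and 8.73 in Pfn2-/- livers and 8.39, 8.31 and 9.37 in wild-type livers. Wild-type replicate 3 lay among the Pfn2-/- arrays and the other wild-type arrays below all of them. The difference was 0.65 (SE 0.34, interval -0.10 to 1.40, adjusted p = 0.943), a 1.57-fold higher level. It was 0.99 without wild-type replicate 3 (adjusted p = 0.512) and 0.33 without Pfn2-/- replicate 1 (adjusted p = 0.996). With array weights it was 0.90 and had an unadjusted p under 0.05 (adjusted p = 0.607). Angptl4 had 7.60, 7.10 and 7.93 in Pfn2-/- livers and 8.32, 7.92 and 7.34 in wild-type livers. Here too wild-type replicate 3 lay apart from the other wild-type arrays. The difference was -0.32 (SE 0.26). It was -0.58 without wild-type replicate 3 (adjusted p = 0.686), but -0.09 without wild-type replicate 1 and -0.10 without Pfn2-/- replicate 2.

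The receptor and carrier genes had small differences, all above 0. Lrp1 encodes a large endocytic receptor for remnants. It had 9.71, 9.54 and 9.54 in Pfn2-/- livers and 9.37, 9.39 and 9.40 in wild-type livers. All 3 Pfn2-/- values lay above all wild-type values, and the wild-type arrays hardly varied. The difference was 0.21 (SE 0.12, interval -0.05 to 0.47, adjusted p = 0.952), a 1.16-fold higher level. Cd36, which encodes a fatty acid translocase and scavenger receptor, lay at 8.09, 8.18 and 8.13 in Pfn2-/- livers and at 8.34, 8.50 and 7.39 in wild-type livers. The difference was 0.06 (SE 0.25) and was -0.29 without wild-type replicate 3. Fabp1, the main fatty acid binding protein of the liver, lay at 10.70 to 10.93 in Pfn2-/- livers and at 10.62 to 10.76 in wild-type livers (difference 0.11, SE 0.12).

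Among lipid droplet genes, Plin5 had the largest absolute difference of all members and Cidec a difference of the other sign. Plin5 encodes a perilipin that links droplets to mitochondria and restrains lipolysis. Its values were 6.27, 6.17 and 7.36 in Pfn2-/- livers and 7.71, 7.67 and 6.89 in wild-type livers. In either genotype replicates 1 and 2 were close to each other, and replicate 3 lay toward the other genotype, so the groups overlapped. The means were 6.60 ± 0.66 (SD, n = 3) in Pfn2-/- livers and 7.42 ± 0.46 (SD, n = 3) in wild-type livers. The difference was -0.82 (SE 0.32, interval -1.54 to -0.11, adjusted p = 0.915), a 1.77-fold lower level in Pfn2-/- livers. It was -1.20 without Pfn2-/- replicate 3 (adjusted p = 0.424).

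Cidec encodes a droplet protein that promotes the growth of droplets by fusion. Its mean lay close to the median of all gene means, with 5.04, 4.92 and 5.74 in Pfn2-/- livers and 5.11, 4.34 and 4.57 in wild-type livers. Wild-type replicate 1 lay above Pfn2-/- replicates 1 and 2. The difference was 0.56 (SE 0.25, interval 0.01 to 1.11, adjusted p = 0.920) and was 0.31 without Pfn2-/- replicate 3 and 0.78 without wild-type replicate 1. Plin2, the perilipin that coats most hepatocyte droplets, had 8.42, 8.58 and 8.00 in Pfn2-/- livers and 8.28, 8.07 and 8.49 in wild-type livers (difference 0.05, SE 0.17, interval -0.34 to 0.44).

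Plin4, the neighbour of Plin5 on chromosome 17, had 5.46, 5.73 and 6.25 in Pfn2-/- livers and 6.41, 6.13 and 5.27 in wild-type livers. As in Plin5, Pfn2-/- replicate 3 was the highest of its genotype and wild-type replicate 3 the lowest of its own. The difference of Plin4 was -0.12 (SE 0.29). Pnpla2, which encodes adipose triglyceride lipase, had 7.34, 7.07 and 7.64 in Pfn2-/- livers and 7.99, 7.46 and 7.26 in wild-type livers, with the same order of replicate 3 within each genotype (difference -0.22, SE 0.21, interval -0.68 to 0.24). Without single arrays the Pnpla2 difference ranged between -0.38 and -0.01, and it was -0.01 without wild-type replicate 1.

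The lowest values of the members were spread unevenly over the arrays. Pfn2-/- replicate 2 held the lowest value of the 6 arrays for 12 of 29 members, among them Apoa5, Tm6sf2, Lipg, Angptl4 and Plin5, against 19.2% of all genes. Wild-type replicate 3 was lowest for 7 members, among them Lpl, Cd36 and Plin4, against 16% of all genes. The other arrays were lowest for 1 to 4 members, against 14.9% to 20.2% of all genes.

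**Figure D3:**
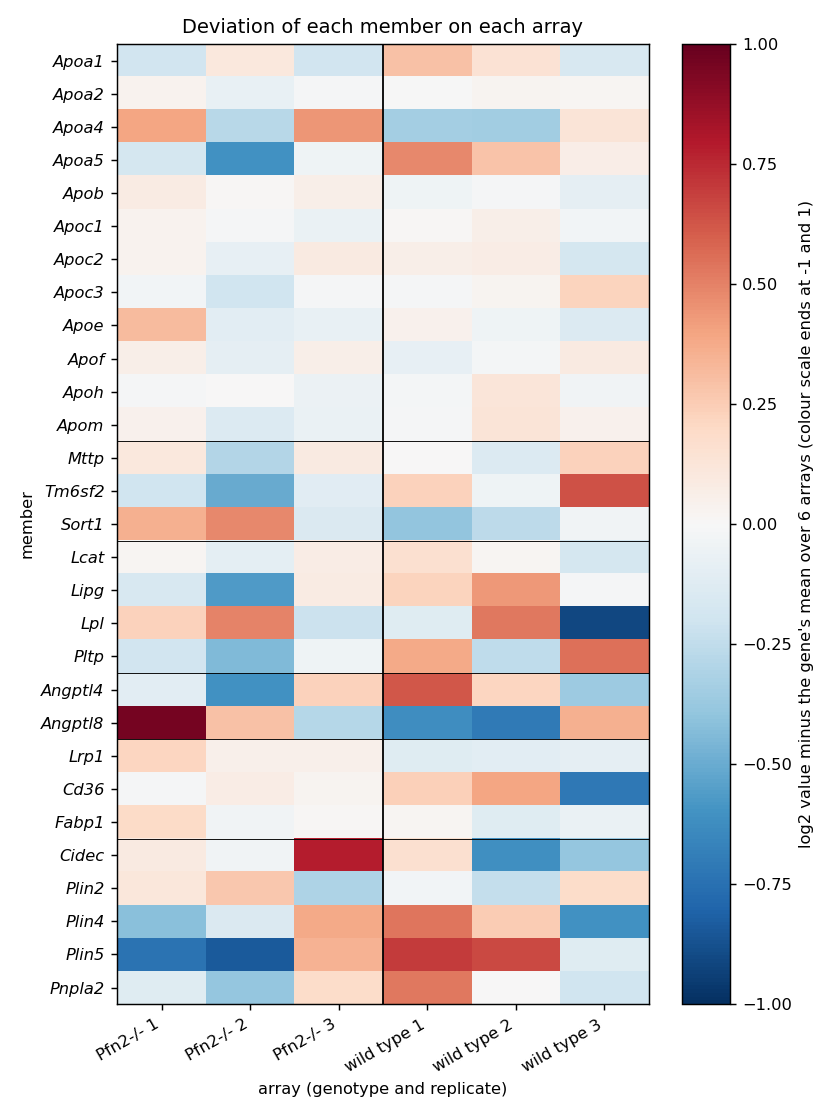
Log2 value of each member (rows) minus its mean over the 6 arrays, by array (columns, Pfn2-/- left of the line and wild type right of it), with red above and blue below the mean. Most apolipoprotein rows are pale, while Plin5, Angptl8, Lpl and Cidec differ between arrays of the same genotype. Pfn2-/- replicate 2 and wild-type replicate 3 hold the lowest value for 12 and 7 of the 29 members, against 19.2% and 16% of all genes.

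Leaving out each array in turn changed which members had a p under 0.05. Apoa5 was the sole member with an unadjusted p under 0.05 in all 6 of these fits, with differences of -0.67 to -0.39. Tm6sf2 had one in 4 of 6 (not without Pfn2-/- replicate 2 or wild-type replicate 3), Cidec in 3, and Plin5, Sort1 and Lipg in 2 each. Of members without one in the fit of all arrays, Apoa4, Pltp and Angptl8 had one in 2 of these fits each, and Lpl and Angptl4 in 1 each. In total 3 to 7 of the 29 members had a p under 0.05. The count was 3 without Pfn2-/- replicate 1, Pfn2-/- replicate 2 or wild-type replicate 1, beside 4.37%, 6.57% and 4.08% of all genes. It was 4 without wild-type replicate 2, beside 4.02%, and 7 without Pfn2-/- replicate 3 or wild-type replicate 3, beside 5.84% and 7.03%. With all arrays kept, 11 other settings gave 5 to 7 members. The share of all genes was then 5.32% with median centring, 5.17% with quantile normalization repeated, 5.16% with cyclic loess, 5.55% above the lower quartile of gene means, 6.15% above their median, 5.30% with rows averaged, 5.25% with every row tested, 5.38% with an eBayes trend, 5.29% with robust eBayes, 7.22% with array weights and 5.73% with a replicate block. None passed the adjusted threshold in any of these 17 fits (smallest adjusted p = 0.424).

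**Figure D4:**
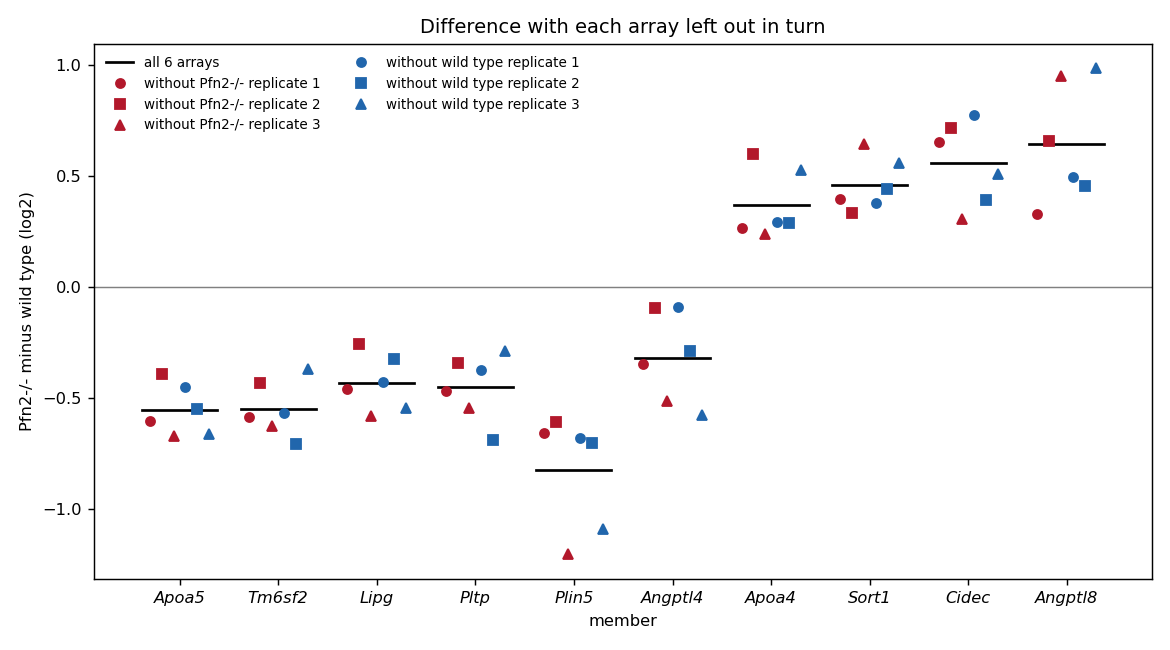
Difference of 10 members, Pfn2-/- minus wild type on the log2 scale (y axis), with all 6 arrays (black line) and with each array left out (red for a Pfn2-/- array, blue for a wild-type array, shape for the replicate number). No point of these 10 members crosses 0, and the points of Plin5 run from -1.20 to -0.61 and those of Angptl8 from 0.33 to 0.99. The figure leaves out the 10 members whose sign turned without a single array. Lpl, for example, was 0.34 with all arrays and -0.03 without wild-type replicate 3.

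Genes of the same pathway outside the 32 were described by 8 lists, also chosen with earlier results of these data known. Of 121 measured genes on them, 13 (10.7%) had an unadjusted p under 0.05, beside 5.29% of all genes, 4 higher and 9 lower in Pfn2-/- livers, and 0 passed the adjusted threshold. Their median difference was 0.01. Among 13 genes of lipoprotein receptors and sterol export 0 had a p under 0.05, with 11 differences below 0 and a median of -0.18. Among 17 other apolipoproteins and proteins of high density lipoprotein 0 did, with 15 above 0 and a median of 0.13. Of 18 genes of assembly and secretion, 1 had a p under 0.05, Aadac, which encodes an arylacetamide deacetylase of the endoplasmic reticulum (-0.38, SE 0.13, median of the list -0.02). Of 8 genes that act on plasma lipases, 1 did, Gpihbp1, the endothelial anchor of lipoprotein lipase (-0.33, SE 0.12, median -0.01).

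Of 20 other droplet and lipolysis genes, Fitm1 and Hsd17b11 had a p under 0.05 and were higher in Pfn2-/- livers. Fitm1, which encodes a protein of droplet formation, had 9.47, 8.83 and 9.23 in Pfn2-/- livers and 8.66, 8.34 and 8.86 in wild-type livers (0.56, SE 0.19), and Hsd17b11, a droplet-associated dehydrogenase, differed by 0.28 (SE 0.12). The list's median was 0.05 (0.045 before rounding). Of 13 genes of fatty acid binding and activation, 3 were lower at that p and 0 higher, with a median of -0.06. Fabp5, a fatty acid binding protein, had 5.33, 5.30 and 4.49 in Pfn2-/- livers and 6.04, 5.78 and 7.10 in wild-type livers, which do not overlap (-1.27, SE 0.33, adjusted p = 0.746). The acyl-CoA synthetase genes Acsl4 and Acsl5 differed by -0.44 (SE 0.15) and -0.42 (SE 0.16).

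Of 21 transcriptional regulators, 3 had a p under 0.05 and the list's median was -0.04. The coactivator gene Ppargc1a differed by -0.66 (SE 0.25) and Foxo1, which acts in fasting, by -0.35 (SE 0.15). Pparg, a receptor that promotes fat storage, differed by 0.49 (SE 0.20), with 7.15, 6.75 and 6.51 in Pfn2-/- livers and 5.94, 6.48 and 6.53 in wild-type livers. The other regulators described were Ppara (0.04, SE 0.17), Hnf4a (-0.10, SE 0.18), Nr1h3 (-0.05, SE 0.13), Srebf1 (-0.11, SE 0.33), Mlxipl (0.32, SE 0.18) and Creb3l3 (0.13, SE 0.16), none at a p under 0.05. The largest absolute difference on the list, named after its values were seen, was that of Nr1d1, a repressor of the circadian clock, which had 9.25, 9.16 and 6.26 in Pfn2-/- livers and 7.38, 7.17 and 6.74 in wild-type livers (1.13, SE 0.65, adjusted p = 0.953). Pfn2-/- replicates 1 and 2 lay above all wild-type arrays and Pfn2-/- replicate 3 below them. Of 11 target genes of PPAR alpha that are not among the members, Vnn1 was higher (0.69, SE 0.22) and Ehhadh (-0.45, SE 0.17) and Acot1 (-0.48, SE 0.18) were lower at that p, with a median of -0.10.

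**Figure D5:**
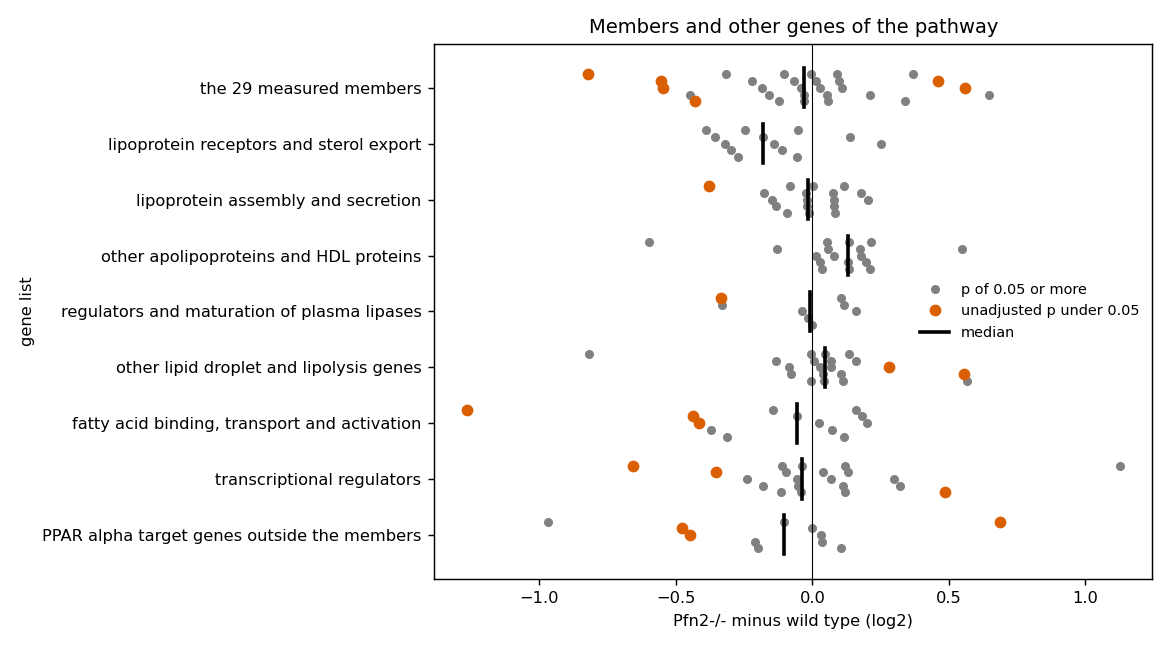
Difference of single genes, Pfn2-/- minus wild type on the log2 scale (x axis), for the 29 measured members and 8 lists of other pathway genes (rows), with orange points at an unadjusted p under 0.05 and a black line at each median. The medians lie between -0.18 and 0.13, and the vertical placement of points within a row has no meaning.

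Several members are also made by other cells than hepatocytes, and in whole liver fewer cells of a type and less RNA per cell cannot be told apart. The 6 measured of 8 adipocyte markers, a cell type that expresses Cidec, Plin4 and Lpl, averaged 4.16 to 4.48 over Pfn2-/- arrays and 4.18 to 4.28 over wild-type arrays, with 0 at a p under 0.05. Adipoq was dim, at 3.57 to 3.86 in Pfn2-/- livers and 3.62 to 4.05 in wild-type livers. Lipe lay above the median of all gene means (4.72), at 4.83 to 5.36 in Pfn2-/- livers and 5.05 to 5.20 in wild-type livers. Cidea had 4.90, 3.72 and 4.99 in Pfn2-/- livers and 3.88 to 4.14 in wild-type livers. The adipocyte list was highest in Pfn2-/- replicate 3 (4.48), and so was Cidec (5.74). Plin4 was highest in wild-type replicate 1 (6.41) and Lpl in wild-type replicate 2 (6.08). The 8 markers of sinusoidal endothelial cells, which express Lipg and Cd36, averaged 7.77 to 7.94 in Pfn2-/- livers and 7.80 to 8.19 in wild-type livers, with 1 at a p under 0.05 (Gpihbp1, lower). The 13 markers of Kupffer cells and macrophages, which express Apoe, Cd36 and Lpl, averaged 6.80 to 6.86 in Pfn2-/- livers and 6.68 to 7.36 in wild-type livers. Their highest array, wild-type replicate 2, also held the highest Lpl and Cd36, and their lowest, wild-type replicate 3, the lowest Lpl and Cd36, whereas Apoe was highest in Pfn2-/- replicate 1. This order of arrays was not particular to the macrophage list. The hepatocyte and stellate lists were also highest in wild-type replicate 2 (11.46 and 7.46) and lowest in wild-type replicate 3 (11.28 and 7.12). The part of any cell type in the Lpl, Cd36, Apoe, Cidec and Plin4 values was not tested. The 9 measured of 10 hepatocyte markers averaged 11.28 to 11.34 in Pfn2-/- livers and 11.28 to 11.46 in wild-type livers, with 0 at a p under 0.05. The 5 measured of 6 cholangiocyte markers averaged 4.55 to 4.65 in Pfn2-/- livers and 4.39 to 4.42 in wild-type livers, with Sox9 and Cftr, both higher, at a p under 0.05. Krt19, Krt7 and Epcam differed by 0.05, 0.02 and -0.10. Cftr was dim, at 2.88 to 3.09 in Pfn2-/- livers and 2.45 to 2.77 in wild-type livers. The stellate, lymphocyte and muscle lists averaged 7.20 to 7.32, 4.36 to 4.66 and 4.63 to 4.76 in Pfn2-/- livers and 7.12 to 7.46, 4.45 to 5.14 and 4.54 to 4.69 in wild-type livers, with Col3a1 (-0.30, SE 0.13) the sole marker of these 3 lists at a p under 0.05.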

How the data were processed

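Total RNA of 6 livers was hybridised to Affymetrix arrays after biotin labelling, per the labels' protocols. The deposited values are log2 RMA summaries, and RMA and limma are named in the submitters' processing notes, with versions not given in the sources used here. RMA equalises the distributions of arrays, so shifts shared by all genes are removed. Of 34390 rows, 23521 had exactly 1 gene symbol in the platform annotation, and each gene was represented by its brightest row on average, which left 22180 genes. These were compared with limma 3.58.1 (R 4.3.3; genotype as the sole term, eBayes without trend, two-sided), with Benjamini-Hochberg adjustment over all genes and a threshold of 0.05. An unadjusted p under 0.05 is given only to describe. The fit was tested on simulated data. The members and all lists were chosen with earlier results of these data known. Members at that p or without overlap, and the members of smallest p per role, are given by array, and up to 4 genes of that p per other list. The neighbours of members and the motifs were chosen after the values were seen. Arrays give no read depth, and their number limits the precision.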

Additional observations from a re-analysis of the deposited data

How the results depend on the processing

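No member passed the adjusted threshold under any of 17 alternatives, and 19 of 29 members kept the sign of their difference in all of them. Apoa5, Tm6sf2 and Plin5 had an unadjusted p under 0.05 in all 11 alternatives that kept every array, Sort1 in 10 (not with rows averaged), Lipg in 8 and Cidec in 7, and the count of members at that p was 5 to 7. Without single arrays it was 3 to 7. The share of all genes at that p was 5.16% to 7.22% with every array kept and 4.02% to 7.03% without single arrays. The signs that turned with all arrays were those of Lcat (0.0033 with median centring), Apof (-0.00011 with cyclic loess) and Cd36 (-0.0574 with array weights). Without single arrays they were Apoc2 (-0.0533 to 0.075), Apoe (-0.045 to 0.165), Apof (-0.025 to 0.0633), Apoh (-0.0733 to 0.00667), Mttp (-0.15 to 0.065), Lcat (-0.0933 to 0.0767), Lpl (-0.0317 to 0.69), Cd36 (-0.29 to 0.27), Plin2 (-0.07 to 0.22) and Plin4 (-0.46 to 0.11). Over all genes, 2 passed the adjusted threshold with array weights and 0 to 6 without single arrays. Of the 121 other pathway genes, 20 had an unadjusted p under 0.05 with array weights, beside 7.22% of all genes. Without single arrays 4 to 20 of them had one, beside 4.02% to 7.03% of all genes. The cause of these changes was not tested. A replicate block gave 7 genes past the adjusted threshold and 7 members at an unadjusted p under 0.05, with Apoa4 and Pltp added and Lipg lost. The numbers share an age in the labels, but the main fit did not treat them as pairs. Deviations of same-numbered arrays correlated at -0.08, 0.15 and 0.02 across genes, and those of differently numbered arrays at -0.17 to 0.18. Over the members the same-numbered values were -0.70, 0.30 and -0.39. With 3 arrays per genotype these correlations cannot decide whether the arrays form pairs. Fits without 1 array of a genotype take the spread of the remaining arrays as shared. The number of arrays limits the size of difference that can be seen.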
